A study of Mus musculus with 32 samples.

Results

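Genes best known from B cells, namely *Ighj1*, *Ighm*, *Cd79b*, *Cr2*, *Bank1*, *Blnk* and *Btk*, were followed in mouse microglia, 7 of the 18588 genes in the table. *Ighj1* and *Bank1* were chosen by their own log2 signals in these libraries, so their values are a description and carry no test. The other 5 were named for their place in the B-cell receptor pathway, with earlier results of these data known, and were tested.

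The B-cell receptor is a membrane immunoglobulin, whose heavy chain variable part is joined from V, D and J segments of the genome, held together with the signalling subunits CD79A and CD79B. On binding of antigen the kinases LYN, SYK and BTK and the adaptor BLNK pass on the signal. BANK1 is a scaffold between receptor and kinases, and complement receptor 2 lowers the threshold as a coreceptor. Myeloid cells use several of the same adaptors and kinases downstream of other receptors, and microglia are the resident macrophages of the brain.

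RNA of microglia captured from mouse forebrain with CD11b beads was sequenced at 2, 4, 6 and 8 months of age, in female rTg4510 mice (genotype label Transgenic, strain label rTg4510) and age-matched female WT mice (genotype label Wild-type, an F1 strain by their label). Forebrain neurons of rTg4510 mice make human tau with the P301L mutation. The CaMKIIα promoter drives a transactivator transgene, whose product acts on the tetracycline-responsive element of the tau transgene. Each library came from pooled forebrains, so the p-values measure the spread between pools. Of 4 libraries per genotype and age, 4 were kept at 2 and 6 months and 3 at 4 and 8 months, 28 of 32 in all, and the other 4 failed quality control (QC) in the study. The strain label differs with the genotype label, while the study describes its WT mice as littermates without either transgene. In such bulk RNA fewer cells of a type and less RNA per cell cannot be told apart.

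The label of the cells was checked against 16 microglia identity genes, each of which had a row. *Cx3cr1* had the highest signal in the list, a mean log2 signal of 13.57 that is not corrected for transcript length. Their summed signal on the log2 scale ranged from 15.09 to 15.57 over the WT libraries and from 14.92 to 15.37 over the rTg4510 libraries, with mean differences of -0.19, -0.0869, -0.17 and -0.19 from the youngest to the oldest age. By the call rule given next, 0, 2, 2 and 1 of the 16 were higher in rTg4510 (*Trem2*, *Tyrobp* or both) and 1, 5, 6 and 6 were lower, *Tmem119*, *Sall1*, *Gpr34*, *P2ry13* and *Slc2a5* at each of the later ages. Of all genes 1.58%, 9.47%, 11.3% and 10.5% were higher and 0.403%, 4.33%, 8.54% and 5.37% were lower. The sum follows its genes of highest signal. The median log2 fold change of the 16 was -0.19, -0.32, -0.52 and -0.53 by age, against 0.0143, -0.037, -0.035 and -0.014 over all genes. By age 10, 12, 16 and 14 of the 16 had an unadjusted p under 0.05, and limma with moderated variance called 1, 7, 8 and 7.

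Gene values are log2 signals, median normalized over each library and not corrected for transcript length, so levels are compared between libraries, and the highest signal named for a list is no measure of abundance. Group values are means ± SD over libraries. Differences and log2 fold changes are rTg4510 minus WT with their standard error (SE), and a gene was called changed at an FDR under 0.05 in limma's linear model with a change above 1.5 fold. The lowest value of a library lay between 1.23 and 1.92.

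*Ighj1* (Entrez 777648) is the first joining segment of the heavy chain locus, 53 bases long at chr12:113429781-113429833 of GRCm38 on the minus strand. In WT its log2 signal was 7.12, 7.29, 7.11 and 7.34 at 2 months, 7.13, 7.32 and 7.16 at 4 months, 6.97, 7.58, 7.35 and 7.27 at 6 months, and 7.05, 7.32 and 7.45 at 8 months. In rTg4510 it was 9.14, 8.93, 9.12 and 9.23 at 2 months, 8.52, 8.56 and 8.63 at 4 months, 8.65, 8.74, 8.78 and 8.87 at 6 months, and 8.62, 8.85 and 8.79 at 8 months. Each rTg4510 library lay above every WT library of any age, with 2 months the highest group and the 3 later groups close together. The 4 WT groups had means from 7.20 to 7.30, within their spread of each other. The log2 fold changes were 1.89 (SE 0.106), 1.37 (SE 0.122), 1.46 (SE 0.106) and 1.48 (SE 0.122) from the youngest to the oldest age, or 3.7, 2.58, 2.76 and 2.79 fold.

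The row for *Ighj1* spans 53 bases, and how reads that run past its ends were counted is not given in the sources used here. The 3 other joining segments of the locus with a row stand on the same strand on the side of the constant regions. Their sequences from GENCODE M21 are shown because they show how much sequence the segments share, with capitals for the 22 of the last 34 bases that are the same in all 4.
Ighj1: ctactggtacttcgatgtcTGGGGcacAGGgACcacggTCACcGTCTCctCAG
Ighj2: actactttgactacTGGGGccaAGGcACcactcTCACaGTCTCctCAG
Ighj3: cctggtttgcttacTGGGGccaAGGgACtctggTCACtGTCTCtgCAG
Ighj4: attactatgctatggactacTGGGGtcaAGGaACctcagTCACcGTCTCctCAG
Over the last 34 bases *Ighj1* matched *Ighj2* and *Ighj4* at 28 and *Ighj3* at 26. The counting of reads that match more than one segment is not given either, and these rows are uncertain for that reason.

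The 4 segments lie within chr12:113428514-113429833, and their log2 signals did not move alike. *Ighj3* (chr12:113429085-113429132) had 3.91, 4.30, 4.42 and 4.97 in WT and 6.29, 6.15, 5.55 and 6.18 in rTg4510 at 2 months. All 4 rTg4510 libraries were above the 4 WT libraries, and the segment was called with a log2 fold change of 1.64 (SE 0.288, limma FDR 0.000919), also in every alternative fit. At 6 months the WT libraries had 4.48, 4.18, 4.96 and 5.24 and the rTg4510 libraries 5.60, 5.95, 4.78 and 5.77. The groups overlapped there, and the call (log2 fold change 0.81, SE 0.288, limma FDR 0.0341) was lost with a replicate block (FDR 0.0793), over all 32 libraries (0.144), with that age fitted alone (0.142), and without WT replicate 1 or 2 or rTg4510 replicate 1, 2 or 4 (0.63 to 0.79). At 4 and 8 months *Ighj3* was not called, with 0.55 (SE 0.333) and 0.36 (SE 0.333).

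Neither *Ighj2* nor *Ighj4* was called at any age. *Ighj2* (chr12:113429468-113429515), the row next to *Ighj1*, had group means from 5.99 to 6.14 in WT and from 5.59 to 6.09 in rTg4510, with log2 fold changes of 0.0939 (SE 0.198), -0.50 (SE 0.229), -0.43 (SE 0.198) and -0.0487 (SE 0.229) by age. *Ighj4* (chr12:113428514-113428567) had 0.35 (SE 0.122), -0.25 (SE 0.141), -0.16 (SE 0.122) and -0.17 (SE 0.141). On the other side of *Ighj1* the 5 next rows were *Adam6b* and 4 pseudogenes, and none of these was called at any age. Of all genes 1.98%, 13.8%, 19.8% and 15.9% were called by age. *Adam6b* had large errors, with log2 fold changes of 1.4 (SE 0.624), -0.99 (SE 0.721), 0.53 (SE 0.624) and -1.25 (SE 0.721).

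*Ighm* (Entrez 16019), the constant region of the IgM heavy chain, is the next row beyond *Ighj4*, at chr12:113418826-113422730. At 2 months its log2 signal was 12.49, 12.46, 12.43 and 12.35 in WT and 12.93, 12.78, 12.88 and 12.82 in rTg4510. At 4 months it was 12.16, 12.37 and 12.23 in WT and 12.44, 12.53 and 12.51 in rTg4510. At these ages the genotypes did not overlap. The later values were 12, 12.37, 12.48 and 12.44 against 12.29, 12.42, 12.29 and 12.47 at 6 months, and 12.03, 12.22 and 12.19 against 12.16, 12.40 and 12.36 at 8 months, WT before rTg4510, and there the groups overlapped.

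For *Ighm* the log2 fold change at 2 months was 0.42 (SE 0.0832, limma FDR 0.00251), under the limit of 1.5 fold, and 1 of the 5 tested genes, *Ighm*, passed the FDR limit alone at that age, as did 6.03% of all genes. It was 0.24 (SE 0.096, limma FDR 0.0817), 0.0463 (SE 0.0832, FDR 0.706) and 0.16 (SE 0.096, FDR 0.26) at the later ages. Taken as pairs by replicate number, 3 of 4 rTg4510 libraries at 6 months and 3 of 3 at 8 months lay above their WT library, and with a replicate block the limma FDR of *Ighm* was 0.589 and 0.131. Under quantile normalization the value at 2 months was 0.15 (limma FDR 0.231), and the sign turned at the other ages to -0.33, -0.59 and -0.42, with FDR values of 0.0032, 4.28e-07 and 0.000249. Without WT replicate 1 the difference at 6 months was -0.0615. After 2 months no direction of *Ighm* held under both scalings. Within rTg4510 it fell by 0.55 on the log2 scale from 2 to 8 months (SE 0.0898, limma FDR 0.000118), also under 1.5 fold, in a comparison where 21.7% of all genes passed the FDR limit alone. In WT the difference was -0.29 (SE 0.0898, limma FDR 0.0765), and whether it differed from that in rTg4510 was not tested. The change in rTg4510 passed 1.5 fold under quantile normalization (-0.76, limma FDR 1.19e-07) and without rTg4510 replicate 2 of 8 months (-0.60, FDR 0.000349).

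Of the 26 rows for immunoglobulin segments, constant regions and whole loci, 10 belong to the heavy chain. *Ighd*, the IgD constant region beside *Ighm*, fell at 6 and 8 months. Its log2 signal at 6 months was 10.75, 11.25, 10.71 and 10.82 in WT and 9.46, 9.73, 9.74 and 9.76 in rTg4510, a difference of -1.21 (SE 0.145, limma FDR 9.44e-07) with no overlap of the groups. At 2 and 4 months it was -0.50 both times (SE 0.145 and 0.167, limma FDR 0.0419 and 0.0357), under the fold limit. At 8 months the change was -0.91 (SE 0.167, limma FDR 0.000268), a call that was lost when only the libraries of that age were fitted (FDR 0.0546).

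*Ighg2b*, an IgG constant region, had a mean log2 signal of 15.27 ± 0.223 in WT and 14.40 ± 0.0902 in rTg4510 at 6 months (SD, n = 4 each). Its log2 fold changes were -0.46, -0.70, -0.88 and -0.82 by age (SE 0.0893, 0.103, 0.0893 and 0.103, limma FDR 0.00211, 2.54e-05, 9.07e-08 and 2.54e-06). The first was under the fold limit and the others were called, and at 4 months the call was lost over all 32 libraries (-0.55). The row for the whole heavy chain locus, *Igh*, overlaps these genes, so reads may be shared between them. *Igh* was called at no age, with differences from -0.21 to 0.18. In the same libraries the locus thus held a row that was called higher at 2 months (*Ighj3*), rows called lower at later ages (*Ighd*, *Ighg2b*) and rows that were not called.

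The other rows belong to the light chains, 15 to kappa and 1 to lambda. The kappa constant region *Igkc* had log2 signals from 7.03 to 9.60 over the libraries and was called at no age, with differences of 0.14 (SE 0.409), -0.56 (SE 0.472), 0.28 (SE 0.409) and -0.27 (SE 0.472). The row of the whole kappa locus, *Igk*, was called at no age, nor was any kappa J segment. For *Igk* the rTg4510 libraries lay below the WT libraries at 4 and 8 months and overlapped with them at 2 and 6 months. The row of the whole lambda locus, *Igl*, was called lower at 4, 6 and 8 months, with -0.59, -0.81 and -0.80 (SE 0.159, 0.138 and 0.159, limma FDR 0.00894, 8.8e-05 and 0.000585). The call of *Igl* at 4 months was lost over all 32 libraries (FDR 0.189), with that age fitted alone (FDR 0.185), and without WT replicate 4 (-0.46), rTg4510 replicate 2 (-0.58) or rTg4510 replicate 4 (-0.46). Of the 9 kappa V segments with a row, 2 were called lower at 6 months, beside 8.54% of all genes, and at no other age, both lost in 3 of the alternatives and in several of the fits that left out a library.

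**Figure D1:**
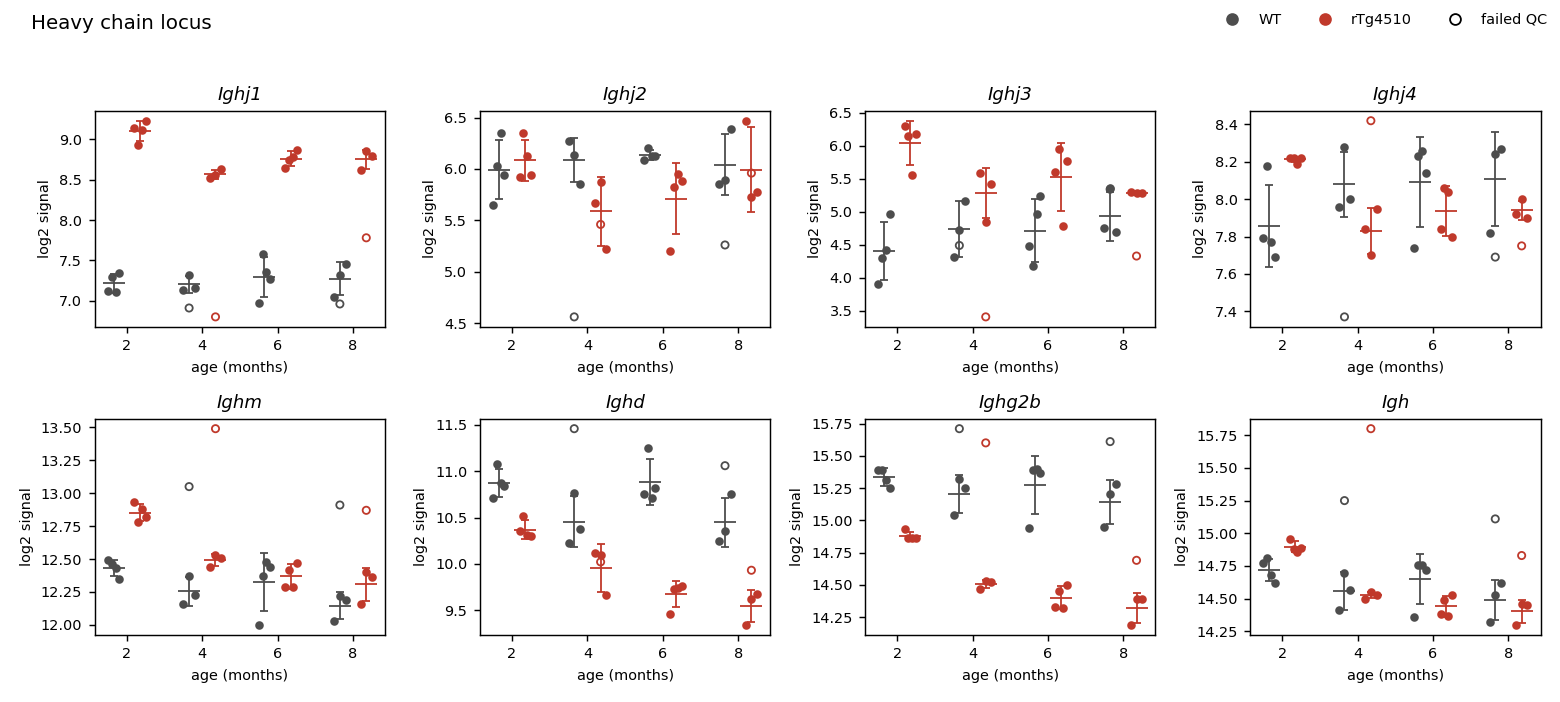
Log2 signal (y axis) of 8 heavy chain rows against age in months (x axis), with filled points for the 28 kept libraries, open points for the 4 that failed QC, and bars for the mean ± SD of the kept libraries. Among the kept libraries the rTg4510 points lie above the WT points at each age for *Ighj1* and at 2 months for *Ighj3*, and below them at each age for *Ighg2b*.

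*Cd79b* (Entrez 15985, chr11:106311341-106314562), the signalling partner of the receptor, had log2 signals of 5.11, 4.77, 4.91 and 5.30 in WT and 4.86, 4.66, 5.19 and 5.10 in rTg4510 at 2 months. At 4 months it had 5.24, 5.25 and 5.06 against 4.42, 4.75 and 4.08. At 6 months it had 4.77, 4.95, 4.59 and 4.73 against 4.24, 4.57, 4.51 and 4.36, and at 8 months 3.94, 4.46 and 4.77 against 4.16, 3.54 and 4.29. The rTg4510 libraries lay below all WT libraries at 4 and 6 months and overlapped with them at 2 and 8 months.

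At 4 months *Cd79b* was 5.18 ± 0.108 in WT and 4.42 ± 0.336 in rTg4510 (SD, n = 3 each), a called change of -0.76 (SE 0.214, limma FDR 0.012). It was the 1 called gene of the 5 tested, in a comparison that called 13.8% of all genes. Without rTg4510 replicate 4 the difference was -0.60 and the call was lost (limma FDR 0.0806), as it was when only the libraries of 4 months were fitted (FDR 0.102). At the other ages the differences were -0.0701 (SE 0.186), -0.34 (SE 0.186) and -0.39 (SE 0.214), with limma FDR values of 0.922, 0.175 and 0.201. The small difference at 2 months turned to 0.0217 without WT replicate 4 and to 0.0269 without rTg4510 replicate 2. At 8 months it was called over all 32 libraries (-0.76, limma FDR 0.018) and without WT replicate 1 (-0.62, FDR 0.0468), while it was -0.20 without WT replicate 3 and -0.17 without rTg4510 replicate 2.

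With age *Cd79b* fell in rTg4510, by 0.96 on the log2 scale from 2 to 8 months (SE 0.201, limma FDR 0.00136), the 1 called gene of 5 where 10.5% of all genes were called. In WT the same difference was -0.63 (SE 0.201, limma FDR 0.0782), and 0 of the 5 genes were called by limma with or without moderated variance, where 1.27% of all genes were and 2 of the 5 had an unadjusted p under 0.05. Without WT replicate 3 of 8 months the WT change was -0.82 and passed (limma FDR 0.0345). Whether the change from 2 to 8 months differed between the genotypes was not tested.

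Its partner *Cd79a* had log2 signals of 4.31, 4.49 and 5.75 in WT and 3.55, 2.77 and 3.32 in rTg4510 at 4 months, with no overlap. The call (-1.64, SE 0.492, limma FDR 0.0186) was lost with that age fitted alone (FDR 0.138) and with a replicate block (FDR 0.0765). It was also lost without WT replicate 4 (-1.19, FDR 0.126) and without rTg4510 replicate 2 (-1.41, FDR 0.0812). At 2, 6 and 8 months the groups overlapped, with differences of 0.41 (SE 0.426), 0.24 (SE 0.426) and -0.29 (SE 0.492).

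*Cr2* (Entrez 12902, chr1:195136811-195176880), complement receptor 2 of B cells and follicular dendritic cells, had log2 signals in WT of 7.12, 7.75, 7.54 and 7.26 at 2 months, 6.86, 7.11 and 7.12 at 4 months, 7.66, 7.79, 7.30 and 7.08 at 6 months, and 6.67, 6.54 and 7.40 at 8 months. In rTg4510 it had 6.94, 6.99, 6.64 and 6.84, then 7.06, 5.89 and 7.28, then 6.48, 5.45, 5.61 and 6.10, and 5.85, 5.07 and 6.77 at 8 months. The rTg4510 libraries were below the WT libraries at 2 and 6 months, and the groups overlapped at 4 and 8 months. The SD in rTg4510 at those ages was 0.747 and 0.849.

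At 6 months *Cr2* was 7.46 ± 0.33 in WT and 5.91 ± 0.47 in rTg4510 (SD, n = 4 each), a called change of -1.55 (SE 0.329, limma FDR 0.000872), or 2.92 fold lower. It was the 1 called gene of 5 where 19.8% of all genes were called, and the call was kept in every alternative. The differences were -0.57 (SE 0.329, limma FDR 0.43) at 2 months, -0.28 (SE 0.38, FDR 0.654) at 4 months and -0.97 (SE 0.38, FDR 0.0664) at 8 months. At 8 months the FDR was 0.0498 with a replicate block, 0.0481 under quantile normalization and 0.0215 over all 32 libraries. It was 0.00855 without rTg4510 replicate 3 of that age, the highest of its group, with -1.41 as the difference, and 0.0391 without rTg4510 replicate 2 of 4 months. Without rTg4510 replicate 2 of 8 months, the lowest of its group, the difference at that age was -0.56 and not called. Without replicate 2 of 4 months the difference at 4 months was 0.14, and over all 32 libraries it was 0.07. From 2 to 8 months *Cr2* passed in rTg4510 only without replicate 3 of 8 months or replicate 2 of 4 months (-1.39 and -0.95, limma FDR 0.00845 and 0.0359).

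*Bank1* (Entrez 242248, chr3:136053363-136326141), the scaffold, had log2 signals in WT of 7.88, 7.91, 7.80 and 7.84 at 2 months, 7.91, 7.95 and 7.76 at 4 months, 7.84, 7.81, 8.03 and 7.85 at 6 months, and 7.70, 7.71 and 7.81 at 8 months. In rTg4510 it had 7.39, 7.50, 7.36 and 7.48, then 6.38, 6.47 and 6.35, then 5.70, 5.79, 5.68 and 5.60, and 5.83, 5.63 and 5.90 at 8 months. Each rTg4510 library lay below every WT library of any age, and the rTg4510 groups stepped down from 2 to 4 and from 4 to 6 months without overlap. The groups of 6 and 8 months, 5.69 ± 0.0787 (SD, n = 4) and 5.79 ± 0.138 (n = 3), overlapped, and the WT means stayed between 7.74 and 7.88. The log2 fold changes were -0.43 (SE 0.0597), -1.47 (SE 0.0689), -2.19 (SE 0.0597) and -1.95 (SE 0.0689) by age.

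*Bank1* and *Ighj1*, both chosen for such patterns, had different courses. The log2 fold change of *Ighj1* was highest at 2 months and moved by -0.52 from 2 to 4 months, while that of *Bank1* moved by -1.04 from 2 to 4 months and by -0.72 from 4 to 6 months.

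*Blnk* (Entrez 17060, chr19:40928927-40994221), the adaptor below the receptor, ranged from 7.88 to 8.34 over the WT libraries and from 8.05 to 8.44 over the rTg4510 libraries. In WT the log2 signals were 7.88, 8.09, 8.09 and 8.07 at 2 months and 8.34, 8.09, 8.02 and 8.15 at 6 months. In rTg4510 they were 8.05, 8.25, 8.18 and 8.14 at 2 months and 8.21, 8.29, 8.38 and 8.34 at 6 months. The genotypes overlapped at each age. The differences of 0.12, 0.14, 0.15 and 0.0597 had 95% intervals of -0.0276 to 0.27, -0.0309 to 0.31, 0.00473 to 0.30 and -0.11 to 0.23, and none was called (limma FDR 0.443, 0.246, 0.105 and 0.649).

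*Btk* (Entrez 12229, chrX:134542334-134583628), the kinase, had mean log2 signals from 6.83 to 6.98 in WT and from 6.77 to 6.94 in rTg4510. The largest SD of a group was 0.149, and the genotypes overlapped at each age. The differences were 0.00738, -0.0927, -0.0165 and -0.10, with 95% intervals of -0.15 to 0.16, -0.27 to 0.0888, -0.17 to 0.14 and -0.28 to 0.0794, and none was called (limma FDR 0.983, 0.496, 0.89 and 0.436).

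**Figure D2:**
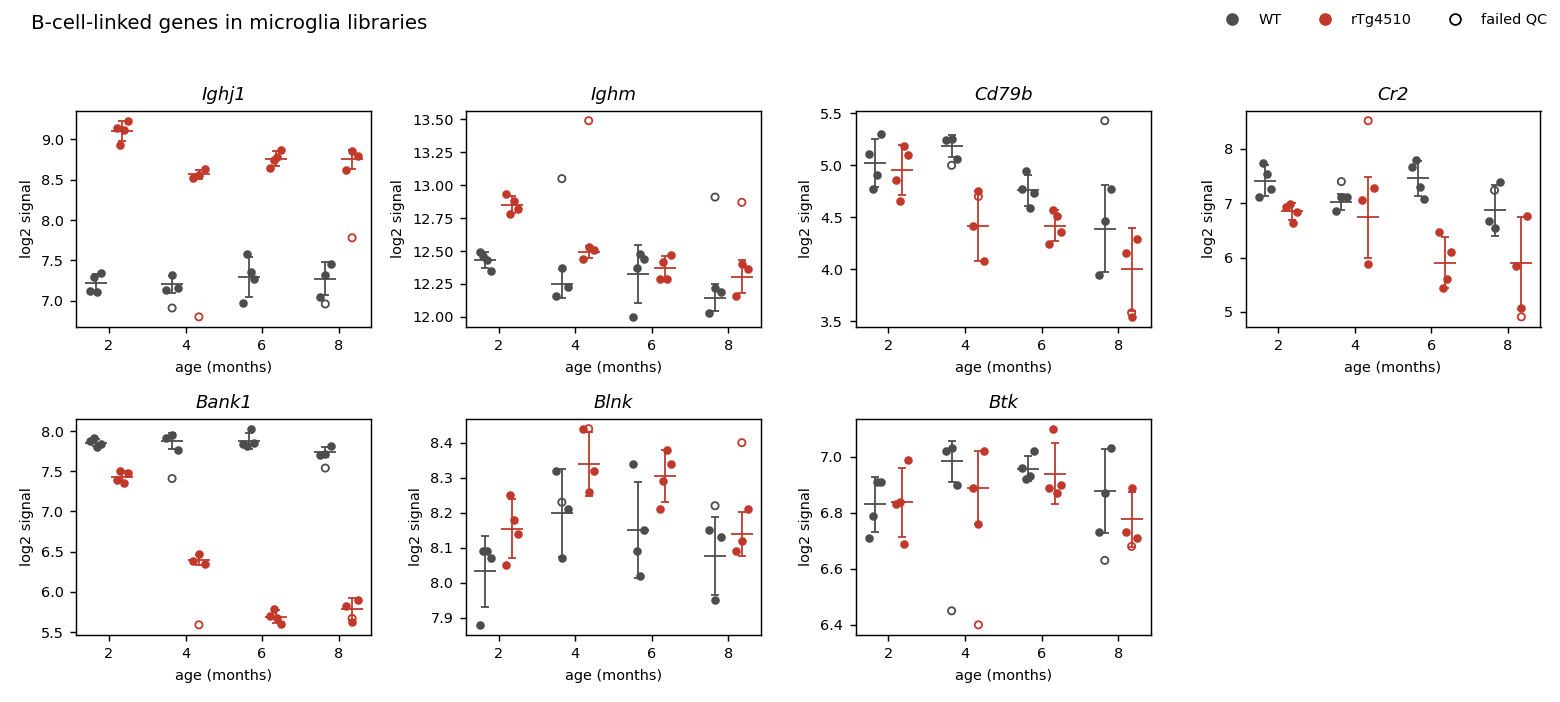
Log2 signal (y axis) of the 7 genes against age in months (x axis), with filled points for the 28 kept libraries, open points for the 4 that failed QC, and bars for the mean ± SD of the kept libraries. *Ighj1* and *Bank1*, chosen for their patterns, separate the genotypes at each age among the kept libraries, while *Blnk* and *Btk* overlap.

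By age, 0 of the 5 tested genes were called at 2 months and 0 at 8 months, by limma with or without moderated variance, where 1.98% and 15.9% of all genes were. At each of these ages 1 of the 5 had an unadjusted p under 0.05. With a replicate block *Cr2* was called at 8 months (limma FDR 0.0498). For the change of the genotype difference between neighbouring ages 0 of 5 were called from 2 to 4, from 4 to 6 and from 6 to 8 months by either fit, and 1, 1 and 0 had an unadjusted p under 0.05, beside 4.66%, 0.156% and 0.0% of all genes called. These were *Cd79b* from 2 to 4 months (-0.69, SE 0.284, limma FDR 0.161) and *Cr2* from 4 to 6 months (-1.26, SE 0.503, FDR 0.483). The calls of *Cd79b* at 4 months and of *Cr2* at 6 months were thus not shown to differ from the neighbouring ages.

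The other genes of the pathway were taken from lists of 34 receptor signalling genes and 18 genes that restrain the receptor, 51 of which are in the table, each counted once. At 2 months 1 of the 51 was called higher and 0 lower, where 1.58% and 0.403% of all genes were. At 4 months 7 were higher and 5 lower (9.47% and 4.33% of all genes), at 6 months 7 and 5 (11.3% and 8.54%), and at 8 months 9 and 1 (10.5% and 5.37%). The median log2 fold change of the 51 was 0.0409, -0.20, -0.0793 and -0.025 by age, against 0.0143, -0.037, -0.035 and -0.014 over all genes. At 2 months 10 of the 51 had an unadjusted p under 0.05, and limma with moderated variance called 1. Under quantile normalization the calls at 8 months were 9 higher and 3 lower, and among all genes at 2 months 213 higher and 99 lower in place of 293 and 75.

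Of the 33 signalling genes measured, 0, 4, 3 and 4 were called higher and 0, 3, 3 and 0 lower by age, beside 1.58%, 9.47%, 11.3% and 10.5% of all genes higher and 0.403%, 4.33%, 8.54% and 5.37% lower. At 2 months 6 had an unadjusted p under 0.05, and limma with moderated variance called 0. *Fyn*, a Src family kinase, rose by 0.95 at 6 months (SE 0.159, limma FDR 7.1e-05), and the adaptors *Lat2* and *Sh3bp2* rose by 0.88 at 4 months (SE 0.114, FDR 4.54e-06) and 0.85 at 8 months (SE 0.0842, FDR 9.51e-08). The inositol trisphosphate receptors *Itpr3* and *Itpr2* had changes of -0.73 (SE 0.0722, limma FDR 5.89e-08) and -0.62 (SE 0.0713, FDR 4.99e-07) at 6 months, the latter under the fold limit without WT replicate 1 or rTg4510 replicate 3 (-0.56 each). *Dapp1*, an adaptor that binds PI3K products, fell by 0.70 at 4 months (SE 0.0866, limma FDR 2.65e-06), a call lost over all 32 libraries (FDR 0.162).

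Of the 18 genes that restrain the receptor 1, 3, 4 and 5 were called higher and 0, 2, 2 and 1 lower by age, beside 1.58%, 9.47%, 11.3% and 10.5% of all genes higher and 0.403%, 4.33%, 8.54% and 5.37% lower. At 2 months 4 had an unadjusted p under 0.05 and limma with moderated variance called 1. *Cd22*, an inhibitory sialic acid receptor of B cells, had log2 signals in WT of 2.93, 3.05, 2.92 and 3.34 at 2 months, 3.01, 3.52 and 3.54 at 4 months, 3.53, 3.30, 3.56 and 3.98 at 6 months, and 3.54, 3.78 and 3.33 at 8 months. In rTg4510 it had 3.66, 3.75, 4.34 and 4.01, then 6.12, 5.85 and 6.16, then 6.59, 6.74, 6.72 and 6.89, and 7.0, 7.11 and 6.50 at 8 months. The genotypes did not overlap at any age, and the rise was 0.88 (SE 0.176), 2.69 (SE 0.203), 3.14 (SE 0.176) and 3.32 (SE 0.203), with limma FDR values of 0.00272, 3.83e-09, 2.12e-11 and 1.61e-10. At 2 months the call was lost over all 32 libraries (FDR 0.15) and when only that age was fitted (FDR 0.074).

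*Siglecg*, of the same lectin family, had a log2 signal at 8 months of 5.24, 5.49 and 5.44 in WT and 2.96, 3.16 and 3.75 in rTg4510. The groups did not overlap, and the changes at 4, 6 and 8 months were -1.15, -2.07 and -2.10 (SE 0.195, 0.169 and 0.195, limma FDR 0.000128, 3.4e-09 and 4.11e-08), the first of them lost with that age fitted alone (FDR 0.056). *Cd72*, an inhibitory coreceptor, rose by 1.95 at 4 months (SE 0.233, limma FDR 1.67e-06) and *Cd5* by 1.63 (SE 0.233, FDR 1.7e-05), the latter call lost when only that age was fitted (FDR 0.0511). *Cd300lf* rose by 0.75 at 8 months (SE 0.0883, limma FDR 1.1e-06). *Dok3* fell by 0.93 at 4 months (SE 0.329, limma FDR 0.0452), a call lost in 16 of 28 fits with a library left out. The value was -0.59 without rTg4510 replicate 2 of that age and -1.30 without replicate 1. The call was lost under quantile normalization (FDR 0.0635), with a replicate block (FDR 0.0908) and with that age alone (FDR 0.261).

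Genes of B-cell survival and attraction, ligands and receptors among them, were listed too, 9 of 11 with a row. By age 1, 2, 3 and 3 were called higher and 0, 1, 0 and 0 lower, beside 1.58%, 9.47%, 11.3% and 10.5% of all genes higher and 0.403%, 4.33%, 8.54% and 5.37% lower. The median log2 fold change of the 9 was 0.17, -0.038, 0.19 and 0.15. *Cxcl13*, the chemokine that draws B cells into follicles, had log2 signals of 5.17, 5.67 and 5.01 in WT and 9.33, 9.32 and 9.31 in rTg4510 at 8 months. It rose by 3.27, 2.93 and 4.04 at 4, 6 and 8 months (SE 0.256, 0.221 and 0.256, limma FDR 6.19e-09, 1.17e-09 and 2.57e-10), calls kept in every alternative. *Tnfsf13b*, the survival factor BAFF, rose at each age, by 0.97, 1.0, 0.75 and 0.86 (SE 0.119, 0.138, 0.119 and 0.138, limma FDR 4.21e-05, 1.08e-05, 3.62e-05 and 5.15e-05), and lost the call at 2 and 4 months over all 32 libraries and at 8 months with that age fitted alone. *Tnfsf13*, or APRIL, rose by 0.86 at 8 months (SE 0.195, limma FDR 0.00202), not a call over all 32 libraries (FDR 0.0811) or with that age fitted alone (FDR 0.13). *Cxcl12* fell by 1.19 at 4 months (SE 0.424, limma FDR 0.0479), a call lost in 19 of 28 fits with a library left out. The value was -0.76 without rTg4510 replicate 1 of that age and -1.60 without replicate 2, and the call was lost under quantile normalization (FDR 0.0526) and with that age alone (FDR 0.254).

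Of 15 transcription factors shared by B cells and myeloid cells, all in the table, 0, 1, 3 and 2 were called higher and 0, 1, 2 and 1 lower by age, beside 1.58%, 9.47%, 11.3% and 10.5% of all genes higher and 0.403%, 4.33%, 8.54% and 5.37% lower. At 2 months the count was also 0 with moderated variance, and 3 had an unadjusted p under 0.05 in limma's fit. The median log2 fold change of the 15 was 0.0871, -0.13, -0.13 and -0.04. *Bcl6*, a repressor of germinal centre B cells, rose by 1.11 at 8 months (SE 0.133, limma FDR 1.29e-06). *Id2* rose by 1.39 (SE 0.403, limma FDR 0.0134) and *Bcl11a* fell by 1.33 (SE 0.245, FDR 0.000261) at the same age, calls lost over all 32 libraries (FDR 0.145) and with the libraries of that age alone (FDR 0.0696) in this order. That of *Id2* was also lost without WT replicate 3 (1.27) or rTg4510 replicate 2 (1.23). At 6 months *Irf8* rose by 0.61 (SE 0.105, limma FDR 9.47e-05) and *Id3* fell by 1.39 (SE 0.48, FDR 0.0291), and neither was called under quantile normalization, nor *Id3* over all 32 libraries (FDR 0.0637). Without WT replicate 1 or rTg4510 replicate 3 *Irf8* was under the fold limit (0.56 and 0.57), and *Id3* was lost without WT replicate 1 or 3 or rTg4510 replicate 1 or 4 (-1.40 to -1.19).

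Markers of B cells were examined in the same libraries. Of 22 identity genes 15 had a row. *Ms4a1*, which encodes CD20, had log2 signals from 1.31 to 5.63 with a median of 3.96 and lay within 1 of the lowest value in 3 of 28 libraries. It was called at no age. By age 1, 1, 1 and 1 of the 15 were called higher, *Cd22* in each case, and 0, 3, 4 and 2 lower, beside 1.58%, 9.47%, 11.3% and 10.5% of all genes higher and 0.403%, 4.33%, 8.54% and 5.37% lower. At 2 months 2 had an unadjusted p under 0.05, and limma with moderated variance called 1.

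Those lower were *Cd79a*, *Spib* and *Fcrl1* at 4 months, *Ebf1*, *Ighd*, *Cxcr5* and *Fcrl1* at 6 months, and *Ighd* and *Fcrl1* at 8 months. The call of *Cd79a* was lost with the libraries of its age fitted alone (limma FDR 0.138) and with a replicate block (FDR 0.0765). The Fc receptor-like gene *Fcrl1* had changes of -1.39, -1.56 and -1.97 at these ages (SE 0.29, 0.251 and 0.29, limma FDR 0.00105, 4.48e-05 and 1.97e-05), the first lost with that age fitted alone (FDR 0.0997). *Ebf1*, a B-lineage transcription factor, fell by 1.5 at 6 months (SE 0.364, limma FDR 0.00291). Its rTg4510 values at that age, 1.88 to 2.05, were near the lowest value of a library. Over all ages *Ebf1* lay within 1 of that value in 5 of 28 libraries. *Spib*, an ETS family factor, had -2.48 at 4 months (SE 0.789, limma FDR 0.0263) with groups that overlapped. Its call was lost with that age fitted alone (FDR 0.22) and with a replicate block (FDR 0.0541). It was also lost without WT replicate 1 or 4 or rTg4510 replicate 1 or 4 (-2.50 to -1.82). *Cxcr5*, the receptor for CXCL13, had -0.77 at 6 months (SE 0.266, limma FDR 0.0297), lost over all 32 libraries (FDR 0.115), with that age alone (FDR 0.112), and without WT replicate 2 (-0.61) or rTg4510 replicate 4 (-0.53). The median log2 fold change of the 15 was -0.24, -0.66, -1.07 and -0.47 by age, against 0.0143, -0.037, -0.035 and -0.014 over all genes.

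The summed log2 signal of the 15 identity genes, of which *Ighd* had the highest signal, was 11.11, 11.49, 11.24 and 11.30 in WT and 10.96, 11.11, 10.80 and 10.83 in rTg4510 at 2 months. At 4 months it was 10.73, 11.09 and 11.30 against 10.70, 10.65 and 10.22. At 6 months it was 11.27, 11.50, 11.26 and 11.20 against 10.45, 10.89, 10.36 and 10.51, and at 8 months 11.13, 11.08 and 11.32 against 10.79, 10.59 and 10.47. At 2 months one value of 11.11 occurred in both genotypes to this precision, and at the other ages the rTg4510 libraries lay below the WT libraries.

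The differences were -0.36, -0.51, -0.76 and -0.56 (two-sided exact permutation p = 0.0286, 0.1, 0.0286 and 0.1, the smallest that 4 against 4 and 3 against 3 libraries allow). Adjusted over the 60 tests of 15 lists at 4 ages they were 0.114, 0.167, 0.114 and 0.167, and at these group sizes no adjusted p under 0.05 was possible for any list. Without *Ighd* the differences were 0.00253, -0.42, 0.10 and -0.17 (exact permutation p = 1.0, 0.6, 0.771 and 0.5). The lower sum thus rested on *Ighd* at 2 and 6 months, and at 8 months it shrank from -0.56 to -0.17 without that gene. As means of the 15 log2 signals they were -0.16, -0.62, -0.62 and -0.43 (exact permutation p = 0.314, 0.2, 0.0286 and 0.2). The part of B cells in the changes of *Cd79b* and *Cr2* was not tested.

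Of 9 precursor genes 3 had a row, 0 were called higher at any age, and 0, 1, 2 and 1 were called lower, beside 1.58%, 9.47%, 11.3% and 10.5% of all genes higher and 0.403%, 4.33%, 8.54% and 5.37% lower. Their median log2 fold change was -0.18, -0.66, -1.34 and -1.19. At 2 months 0 had an unadjusted p under 0.05, and limma with moderated variance called 0. *Il7r*, the interleukin-7 receptor and the gene of highest signal among them, had changes of -0.66, -1.51 and -1.53 at 4, 6 and 8 months (SE 0.16, 0.139 and 0.16, limma FDR 0.00393, 2.05e-08 and 2.23e-07). The first of these was lost over all 32 libraries (FDR 0.326), with that age alone (FDR 0.064) and, by the fold limit, without WT replicate 2 (-0.58). *Erg* had -1.34 at 6 months (SE 0.435, limma FDR 0.0214), lost under quantile normalization (FDR 0.135) and without WT replicate 3 (-1.14) or rTg4510 replicate 3 (-1.11).

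Of 14 plasma cell genes 9 had a row, with the highest signal in *Ighg2b*. By age 0, 0, 1 and 1 were called higher and 0, 3, 3 and 2 lower, beside 1.58%, 9.47%, 11.3% and 10.5% of all genes higher and 0.403%, 4.33%, 8.54% and 5.37% lower. The median log2 fold change was -0.14, -0.30, -0.50 and -0.16. At 2 months 5 had an unadjusted p under 0.05, and limma with moderated variance called 0. *Tnfrsf17*, the plasma cell receptor BCMA, had changes of -1.11, -1.08 and -1.29 at 4, 6 and 8 months (SE 0.29, 0.251 and 0.29, limma FDR 0.00692, 0.00186 and 0.0019), and with single ages fitted alone the calls at 4 and 8 months were lost (FDR 0.0869 and 0.107). *Irf4* had -0.80 at 4 months (SE 0.102, limma FDR 4.14e-06), lost with that age alone (FDR 0.0516). At 6 months it had -0.59 (SE 0.0885, FDR 1.77e-05), under the fold limit with quantile normalization (-0.55) and without WT replicate 2 or 4 or rTg4510 replicate 3 or 4 (-0.58 to -0.56). *Prdm1*, the repressor BLIMP-1, rose at 6 and 8 months by 0.87 and 0.77 (SE 0.105 and 0.121, limma FDR 1.01e-06 and 4.54e-05). *Jchain* was called at no age.

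Markers of other cells were summed as well, each list given with its gene of highest signal. The summed signal of 10 neutrophil genes (*Cxcr2*) differed on the log2 scale by 0.12, -0.49, -1.22 and -1.19 by age (two-sided exact permutation p = 0.714, 0.3, 0.0286 and 0.1). Of the 10 genes 0, 0, 8 and 6 were called lower by age, beside 0.403%, 4.33%, 8.54% and 5.37% of all genes. At 2 and 4 months 0 and 5 had an unadjusted p under 0.05 and limma with moderated variance called 0 and 3. Astrocyte genes (7, *Slc1a3*) differed in sum by -0.20, -0.40, -0.66 and -0.92 and natural killer (NK) cell genes (7, *Klrb1c*) by -0.32, -0.43, -0.43 and -0.62. The astrocyte sum at 8 months was 11.58 in WT replicate 1, beside 10.36 and 10.57 in the other WT libraries and 9.70 to 10.19 in rTg4510. T cell genes (9, *Cd247*) differed by -0.25, -0.0623, -0.33 and -0.12, and dendritic cell genes (8, *Ccr9*) by -0.51, -0.69, -0.27 and -0.19.

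Monocyte genes (7, *Ccr2*) differed in summed log2 signal by -0.11, -0.79, -0.20 and -0.19, and border macrophage genes (8, *Mrc1*) by -0.27, -0.50, -0.35 and -0.19. Endothelial genes (7, *Cldn5*) differed by -0.31, -0.52, -0.34 and -0.46, oligodendrocyte genes (8 in all) by -0.21, -0.60, -0.91 and -0.83, and neuron genes (4, *Camk2a*) by -0.22, -0.57, -0.84 and -0.74. Red blood cell genes (4, *Hbb-bs*) differed by -0.0554, -0.63, -1.17 and -0.81, precursor genes by -0.26, -0.55, -0.94 and -0.83, and plasma cell genes by -0.45, -0.69, -0.86 and -0.80. The plasma cell sum was in effect the row *Ighg2b*, whose changes are given above, and the median of that list was -0.14, -0.30, -0.50 and -0.16. The sums of all these lists belong to the 60 tests in which no adjusted p under 0.05 was possible, and the tests did not use replicate pairs. Taken as pairs by replicate number at 8 months, T cell, dendritic cell, monocyte and border macrophage sums went both ways. At 6 months monocyte, border macrophage, red blood cell and endothelial sums did. The sums of the other lists were lower in rTg4510 in each pair of these ages.

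A sum follows its genes of highest signal, so the genes of these lists were counted as well, beside the shares of all genes given for the neutrophil list and 1.58%, 9.47%, 11.3% and 10.5% called higher. Of the 7 NK cell genes 1 was called higher at each age, *Klrb1c*, and 1, 2, 5 and 1 were lower, with a median log2 fold change of -0.28, -1.04, -1.52 and -0.85. Monocyte genes were called higher in 0, 0, 1 and 0 cases and lower in 0, 1, 4 and 0 of 7, with medians of -0.00138, -0.58, -0.78 and -0.34. The median of the neutrophil genes was 0.10, -1.02, -1.95 and -1.48. Astrocyte genes numbered 0, 0, 1 and 1 higher and 0, 0, 2 and 3 lower of 7, with medians of 0.0821, -0.41, -0.66 and -0.71, so at 2 months the median and the sum differed in sign. Endothelial genes numbered 0, 1, 1 and 1 higher and 0, 1, 3 and 1 lower of 7, with medians of -0.0781, -0.70, -0.86 and -0.72.

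No T cell, dendritic cell, border macrophage, red blood cell, neuron or oligodendrocyte gene was called higher at any age by limma. Those called lower were 0, 1, 1 and 1 of 9 T cell genes, 1, 3, 1 and 2 of 8 dendritic cell genes and 0, 1, 1 and 0 of 8 border macrophage genes. At 6 months 1 of 4 red blood cell and 1 of 4 neuron genes were lower, with 0 at the other ages, and 0 of 8 oligodendrocyte genes were at any age. The medians were -0.41, -0.28, -0.48 and -0.33 for T cells, -0.45, -0.61, -0.0901 and -0.0263 for dendritic cells, and -0.26, -0.52, -0.34 and -0.25 for border macrophages. They were -0.0235, -0.62, -1.17 and -0.83 for red blood cells, -0.37, -0.61, -0.97 and -0.88 for neurons, and -0.18, -0.80, -0.92 and -0.89 for oligodendrocytes. An unadjusted p under 0.05 was found by age in 0, 2, 2 and 1 T cell, 3, 3, 2 and 4 dendritic cell, 0, 4, 4 and 1 border macrophage, 0, 0, 1 and 0 red blood cell, 0, 1, 3 and 1 neuron, and 0, 1, 1 and 1 oligodendrocyte genes. For monocyte, astrocyte and endothelial genes these were 0, 2, 5 and 0, then 2, 2, 4 and 4, and 1, 4, 5 and 3. With moderated variance the number called by limma in these 9 lists was the same at each age, except for 1 more dendritic cell gene and 1 more neuron gene at 8 months. What part these cells had in the changes of the 7 genes was not tested.

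The 5 genes whose log2 signal was most like that of each of the 7 over the 28 libraries were found by Pearson's r, given here as a description of libraries that share groups. For *Bank1* they were *Myo18b*, *Elmo1*, *Hlf*, *Ecscr* and *Srgap2*, with r from 0.982 to 0.985 and Spearman's rho from 0.875 to 0.932. Around the means of the 8 groups r was 0.14, 0.521, 0.418, 0.0432 and 0.343. For *Ighj1* they were *Adgrg5*, *Npnt*, *Cfl1*, *Myl12a* and the pseudogene *Gm5905*, with r from 0.892 to 0.914 and rho from 0.685 to 0.716, and r of -0.376, 0.584, 0.362, -0.0785 and 0.303 around the group means. For both genes r was lower around the group means than over the libraries.

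*Ighm* was most like *Igh*, the locus row that contains it, with r = 0.804 over the libraries and 0.92 around the group means, followed by *Hnrnpd* (0.786), *Gmfg* (0.745), *Cyfip1* (0.743) and the pseudogene *Tpm3-rs7* (0.734). *Cr2* was most like *Slc8a1* (r = 0.889, and 0.714 around the group means), the pseudogenes *Gm8340*, *Gm4904* and *Gm3466* (0.861 to 0.865), and *B4galt4* (0.859). The pseudogene rows may be uncertain if near-identical copies exist, which was not examined. *Cd79b* was most like *Calm2* (0.86), *Smurf2*, *Tubgcp5*, *Git2* and *Ttc14* (0.824 to 0.841). *Blnk* was most like *Lrpprc* (0.836), *Limk1*, *Hsp90b1*, the pseudogene *Gm6206* and *Pdia3* (0.769 to 0.80), and *Btk* like *Ctps2* (0.723), *Atp13a3*, *Pnpla8*, *Pomt1* and *Ecd* (0.684 to 0.716).

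Among themselves the 7 genes were compared by Pearson's r as well. *Bank1* and *Cr2* had r = 0.768 over the 28 libraries and 0.139 around the group means, and *Bank1* and *Cd79b* had 0.662 and 0.354. *Ighj1* and *Bank1*, which were chosen for opposite patterns, had -0.725 and -0.00462. *Ighj1* and *Ighm*, neighbours in the genome, had 0.605 and 0.673, the highest value around the group means of any pair, while *Ighm* and *Blnk* had -0.106 and -0.613.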

How the data were processed

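RNA of 32 microglia libraries was sequenced, and the deposited values are log2 gene signals. Each signal is the authors' robust linear fit over the summed read counts of a gene's exons, scaled by the median. Exons with low counts in most libraries did not enter that fit. The build is GRCm38 in the submitters' notes. The aligner and the annotation are not given in the sources used here. Read totals were not used here, and the number of libraries limits the precision (median residual SD 0.232).

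A linear model with 8 group means and unmoderated variances (20 degrees of freedom) was fitted to 18588 genes in 28 libraries, by limma (version 3.58.1, R 4.3.3, package data.table, version 1.17.8), with Benjamini-Hochberg adjustment within a contrast, and was tested on simulated data. Sums of marker signals were compared by exact permutation of libraries, two-sided, without regard to replicate numbers. Python 3.11.15, numpy 2.4.6, pandas 2.3.3 and matplotlib 3.10.9 made the tables and plots. RefSeq GRCm38.p6 named 95.9% of the Entrez numbers, and GENCODE M21 gave the segment sequences.

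Deviations of same-numbered WT and rTg4510 libraries from their group means correlated over all genes (r from 0.131 to 0.153 at 6 months and from 0.15 to 0.291 at 8 months). These libraries were taken as pairs on the values alone.

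The members and lists were chosen with earlier results of these data known. Named were the 7 genes, immunoglobulin rows, the 5 rows on each side of *Ighj1*, the 5 most alike genes of each member, called B-cell list genes, and up to 4 increases and 4 decreases per pathway list among called genes whose genotypes did not overlap. Some genes of these lists are not reported here. Alternatives were moderated variance, all 32 libraries, single ages, a replicate block, quantile normalization, genes above the 25th percentile of signal, other call limits, Spearman's rho and leaving out each library.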

Additional observations from a re-analysis of the deposited data

Results flagged for a closer look

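In 28 groups of 4 libraries (the 7 genes at 2 and 6 months) 3 held a value far from the other libraries of its group. Chance gives about 1 in 20, a rate that applies to the 5 tested genes only. *Ighj1* and *Bank1* were chosen by their own values, so the *Bank1* value is a description. *Bank1* was 8.03 in 1 WT library at 6 months, *Blnk* was 7.88 in 1 WT library at 2 months, and *Btk* was 7.10 in 1 rTg4510 library at 6 months. Groups of 3 were not tested.

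Libraries that failed QC held values above those of all 28 kept libraries. At 4 months *Ighm* had a log2 signal of 13.49 in rTg4510 replicate 3 and 13.05 in WT replicate 3, *Cr2* had 8.52 and *Blnk* 8.44 in rTg4510 replicate 3. To this precision the *Blnk* value was equal to the highest kept value. At 8 months *Cd79b* had 5.43 in WT replicate 4. In the other direction, *Cr2* had 4.91 in rTg4510 replicate 4 at 8 months, below each kept library.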

How the results depend on the processing

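Counts of the 5 tested genes moved as follows. At 2 months the count of 0 became 1 with no fold limit. At 4 months the count of 1 became 0 above 2 fold, with that age fitted alone, and in 1 of 28 fits that each left out 1 library (range 0 to 1). At 6 months it became 2 under quantile normalization. At 8 months the count of 0 became 2 over all 32 libraries, 1 under quantile normalization, and 0 to 1 with 1 library left out. For WT from 2 to 8 months it was 0 to 1 with 1 library left out. For rTg4510 from 2 to 8 months the count of 1 became 2 under quantile normalization or with no fold limit, 0 above 2 fold, and 1 to 2 with 1 library left out.

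With the replicate block the count at 8 months was 1, through *Cr2*, and no other count of the 5 genes at an age or between neighbouring ages, or of the 51 signalling and restraining genes, moved by over 1.5 times. Of other named calls, *Ighj3* and a kappa V segment lost theirs at 6 months, and *Cd79a*, *Spib* and *Dok3* at 4 months. At 2 and 4 months the numbers were not taken as pairs, since correlations of same-numbered libraries were 0.0649 to 0.167 and -0.0999 to 0.124. Not every library there correlated best with its own number.

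Of the 51 signalling and restraining genes, 1 at 2 months became 0 over all 32 libraries, with that age fitted alone or above 2 fold, and 4 with no fold limit. The 12 at 4 months became 6 with that age alone, 30 with no fold limit and 5 above 2 fold, the 12 at 6 months 31 and 4, and the 10 at 8 months 27 and 4.

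These signs turned, and the cause was not tested. Under quantile normalization they were -0.33, -0.59 and -0.42 for *Ighm* at 4, 6 and 8 months, -0.053 for *Blnk* at 8 months, -0.0172 for *Btk* at 2 months, and -0.0499 and -0.0106 for the change of the *Blnk* difference from 2 to 4 and from 4 to 6 months. Over all 32 libraries they were 0.07 for *Cr2* at 4 months, -0.0065 for the *Blnk* change from 4 to 6 months, 0.0484 for *Blnk* in rTg4510 and -0.016 for *Btk* in WT from 2 to 8 months. With 1 library left out the ranges that held both signs were -0.0615 to 0.10 (*Ighm*, 6 months), -0.15 to 0.0269 (*Cd79b*, 2 months), -0.55 to 0.14 (*Cr2*, 4 months), -0.00325 to 0.10 (*Blnk*, 8 months), and -0.0424 to 0.0565 and -0.071 to 0.00817 (*Btk*, 2 and 6 months). For the change between ages they were -0.28 to 0.17 (*Cd79b*, 6 to 8 months), -0.0442 to 0.0808 and -0.0484 to 0.0766 (*Blnk*, 2 to 4 and 4 to 6 months), and from 2 to 8 months -0.00633 to 0.11 (*Blnk*, WT), -0.0522 to 0.0137 (*Blnk*, rTg4510) and -0.0311 to 0.12 (*Btk*, WT).

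The summed signal of B-cell identity genes differed at 2 months by -0.16 as a mean of log2 signals (exact permutation p = 0.314) and by 0.00253 without *Ighd*, and at 6 months by 0.10 without *Ighd*. With 1 library left out it ranged from -0.42 to -0.29 at 2 months and from -0.87 to -0.69 at 6 months.

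Over all 32 libraries *Ighj1* differed by 1.0 at 4 and 1.32 at 8 months, and *Bank1* by -1.56 at 4 months. Of 81 calls of the other named genes, 38 were kept with moderated variance, all 32 libraries, single ages, the replicate block, quantile normalization and each library left out, and 0 reversed. These alternatives were chosen for these genes after seeing the data. The other call limits were not applied to them, and genes under the 25th percentile drop out of that fit. By Spearman's rho 0, 2, 2, 1, 1 and 3 of the 5 most alike genes of *Ighj1*, *Ighm*, *Cd79b*, *Cr2*, *Bank1* and *Btk* were shared.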

Other observations

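The libraries that failed QC did not follow the patterns for which *Ighj1* and *Bank1* were chosen in every case. *Ighj1* had a log2 signal of 6.80 in rTg4510 replicate 3 at 4 months, below each kept library and beside 6.91 in WT replicate 3 of that age. At 8 months it had 7.78 in rTg4510 replicate 4 and 6.96 in WT replicate 4. *Bank1* had 5.59 in rTg4510 and 7.41 in WT replicate 3 at 4 months, and 5.67 and 7.54 in replicate 4 of these genotypes at 8 months, so the genotypes lay apart for *Bank1* in both pairs. *Btk* lay below each kept library in all 4, at 6.40 and 6.68 in rTg4510 and 6.45 and 6.63 in WT.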
